A study of Mus musculus with 4 samples.

Results

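Many immediate early genes are switched on within minutes of a stimulus, from transcription factors already present in the cell, and their RNA is short-lived. The timing of each gene followed here was not measured. They respond to growth factors and mechanical load, and also to the cutting, cooling and delay that come with dissecting a tissue, so their levels are read as a check of handling between preparations. The 10 genes followed here were Fos, Fosb, Fosl1, Fosl2, Jun, Junb, Atf3, Ier2, Ier3 and Dusp1, out of 22911 genes named on the array. Their probes were found by matching the RefSeq accession of each probe to its gene, which gave 13 probes, and the probe with the highest mean log2 signal stood for its gene. A single probe was present for 7 of the genes, and Fosb, Fosl2 and Junb had 2 each.

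RNA came from mouse tissue labelled PDL, the periodontal ligament, which anchors teeth in the jaw. Samples were either WT (wild type) or a knockout of Mkx (Mkx-KO), a homeobox factor needed in tendons and ligaments, each taken at an age of 10 or 4 weeks. Each of the 4 combinations of genotype and age had 1 one-colour Agilent array, with all arrays on 1 slide, so no group has a replicate error and the number of arrays limits the precision. In this design a difference in handling between preparations cannot be told apart from one of genotype or age. The labels used here give neither the strain, the deleted part of Mkx, the number of mice in a preparation nor the time between dissection and extraction. A level is the log2 signal minus that of the array's 75th percentile, and a difference is a log2 difference between levels, with a technical error that combines the scanner software's error estimates for both spots and does not cover variation between mice. Apart from Fosl1, the 10 genes had nearly the same error of a difference, 0.20 to 0.21. For them 2 technical errors are thus close to a fixed cut. Spots of the same probe on an array varied less, with a median standard deviation of 0.039 to 0.042 over 300 probes. The level of one gene's probe is not compared with that of another.

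The targeted gene, Mkx, was lower in Mkx-KO than in WT at both ages, with a difference of -2.10 ± 0.21 (technical error) in the older and -1.65 ± 0.21 in the younger mice. All 11 ligament and fibroblast markers searched (Postn, Aspn, Tnmd, Scx, Fmod, Col1a1, Col1a2, Col3a1, Col12a1, Dcn and Lum) were well above background on every array. No probe spot was saturated, and 61.8% to 66.6% of the spots of an array were well above background. All 10 immediate early genes were well above background on all 4 arrays.

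Fos, Fosb, Fosl1 and Fosl2 encode the FOS proteins and Jun and Junb the JUN proteins. A FOS protein pairs with a JUN protein through a leucine zipper to form AP-1, a factor that drives genes of matrix breakdown, growth and inflammation. Atf3 encodes a related zipper protein induced by many kinds of stress. Ier2 and Ier3 encode a nuclear regulator and a protein that affects cell survival. Dusp1 encodes a phosphatase that switches off the MAP kinases which induce the others, and so closes the loop.

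Promoters are shown because rapid induction of these genes is wired through short elements near the start site. RefSeq promoter windows (GRCm38.p6) were found for 8 of the 10 genes, and the 250 bases before the start were searched on both strands. The core of the cAMP response element, TGACG, which binds CREB and ATF proteins, was present in 5 of 8 windows (Atf3, Dusp1, Fos, Fosb and Junb) and in 17.8% of all 32851 windows of that length. The full element TGACGTCA, of which that core is a part, was present in Dusp1 alone among the 8 and in 1.55% of all windows. A TATA box written TATAAA was present in Fos (12.4% of all windows), while the AP-1 site TGANTCA (6.75%) and the CArG box bound by serum response factor (1.47%) were in none of the 8. The serum response element known for Fos lies farther upstream than these windows reach. A match is a run of letters and not a measured site. The windows that follow were chosen for the gene with the widest range over the arrays (Fosb), the founding member (Fos) and the full element (Dusp1), with the TGACG core on either strand in capitals.
Fosb (chr7:19310046-19310295, minus strand): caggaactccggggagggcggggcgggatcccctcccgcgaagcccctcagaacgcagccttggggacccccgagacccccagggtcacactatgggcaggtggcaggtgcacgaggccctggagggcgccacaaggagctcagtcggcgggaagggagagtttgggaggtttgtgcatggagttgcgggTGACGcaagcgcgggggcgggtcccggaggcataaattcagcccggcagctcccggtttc
Fos (chr12:85473640-85473889, plus strand): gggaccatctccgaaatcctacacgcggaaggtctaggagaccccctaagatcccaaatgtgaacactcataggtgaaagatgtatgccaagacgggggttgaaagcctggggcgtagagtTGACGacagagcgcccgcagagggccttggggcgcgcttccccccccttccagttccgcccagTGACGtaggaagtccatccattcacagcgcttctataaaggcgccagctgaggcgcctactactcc
Dusp1 (chr17:26508473-26508722, minus strand): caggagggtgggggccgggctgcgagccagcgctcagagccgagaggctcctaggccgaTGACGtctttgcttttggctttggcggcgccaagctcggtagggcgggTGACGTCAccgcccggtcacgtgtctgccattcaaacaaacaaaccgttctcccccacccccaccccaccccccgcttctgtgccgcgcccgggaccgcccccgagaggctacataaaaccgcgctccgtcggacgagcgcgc
In Fos the matches begin 129 and 66 bases before the start, in Fosb 60 bases before it, and in Dusp1 191 and 143 bases before it, the last being the full element.

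Among the FOS genes, Fosb had the widest range. In 10-week tissue it stood at -1.21 (WT) and -0.69 (knockout), and in 4-week tissue at -0.92 (WT) and -0.031 (knockout). Both Mkx-KO arrays were thus above both WT arrays. The processed signals, before scaling, were 133 and 161 at 10 weeks and 140 and 281 at 4 weeks.

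Fosl1 (FRA-1), a FOS protein linked to cell migration and wound closure, was dim. Its processed signal was 16.6 (WT) and 15.3 (knockout) in 10-week tissue, with 13.7 (WT) and 32.3 (knockout) in 4-week tissue. As levels these are -4.22, -4.08, -4.28 and -3.15. The 4-week Mkx-KO array stood apart by 0.93 from the next highest, while the differences of 0.14 by genotype at 10 weeks and 0.060 by age in WT were smaller than their technical errors of 0.35 and 0.38.

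Fos itself, the gene that responds earliest in most tissues, stood at 2.34 (WT) and 2.23 (knockout) in 10-week tissue, with 2.40 (WT) and 2.69 (knockout) in 4-week tissue. Fosl2 (FRA-2), a FOS protein that acts in bone and matrix cells, stood at 3.86, 4.04, 4.02 and 4.32 in the same order. For both genes the 4-week Mkx-KO array was highest, by 0.29 and 0.28 over the next.

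Of the JUN genes, Jun stood at 3.89 (WT) and 4.04 (knockout) in 10-week tissue, with 4.24 (WT) and 4.43 (knockout) in 4-week tissue. Both 4-week arrays were above both 10-week arrays, although in the deposited series table, scaled otherwise, the WT arrays were level (0.0084). Junb, whose product often opposes Jun, stood at 3.68 and 3.47 at 10 weeks and at 3.43 and 3.85 at 4 weeks. Here the 10-week WT and the 4-week Mkx-KO arrays were the higher ones.

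Atf3 followed the same order as Junb, at -0.28 (WT) and -0.48 (knockout) in 10-week tissue, with -0.62 (WT) and -0.18 (knockout) in 4-week tissue. Its highest and lowest levels were both on 4-week arrays. Dusp1 stood at 3.43 and 3.51 at 10 weeks and at 3.34 and 3.63 at 4 weeks. Its range of 0.29 was smaller than 2 technical errors of a difference.

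Ier2 and Ier3 were the flattest. Ier2 stood at 0.63 (WT) and 0.60 (knockout) in 10-week tissue, with 0.76 and 0.81 in 4-week tissue. Ier3 stood at 1.26 and 1.21 at 10 weeks and at 1.18 and 1.08 at 4 weeks. Their ranges over the 4 arrays, 0.21 and 0.18, were small, and 11.8% and 7.81% of genes had a smaller one. Ier3 was the only member whose 4-week Mkx-KO level was the lowest of the 4.

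**Figure D1:**
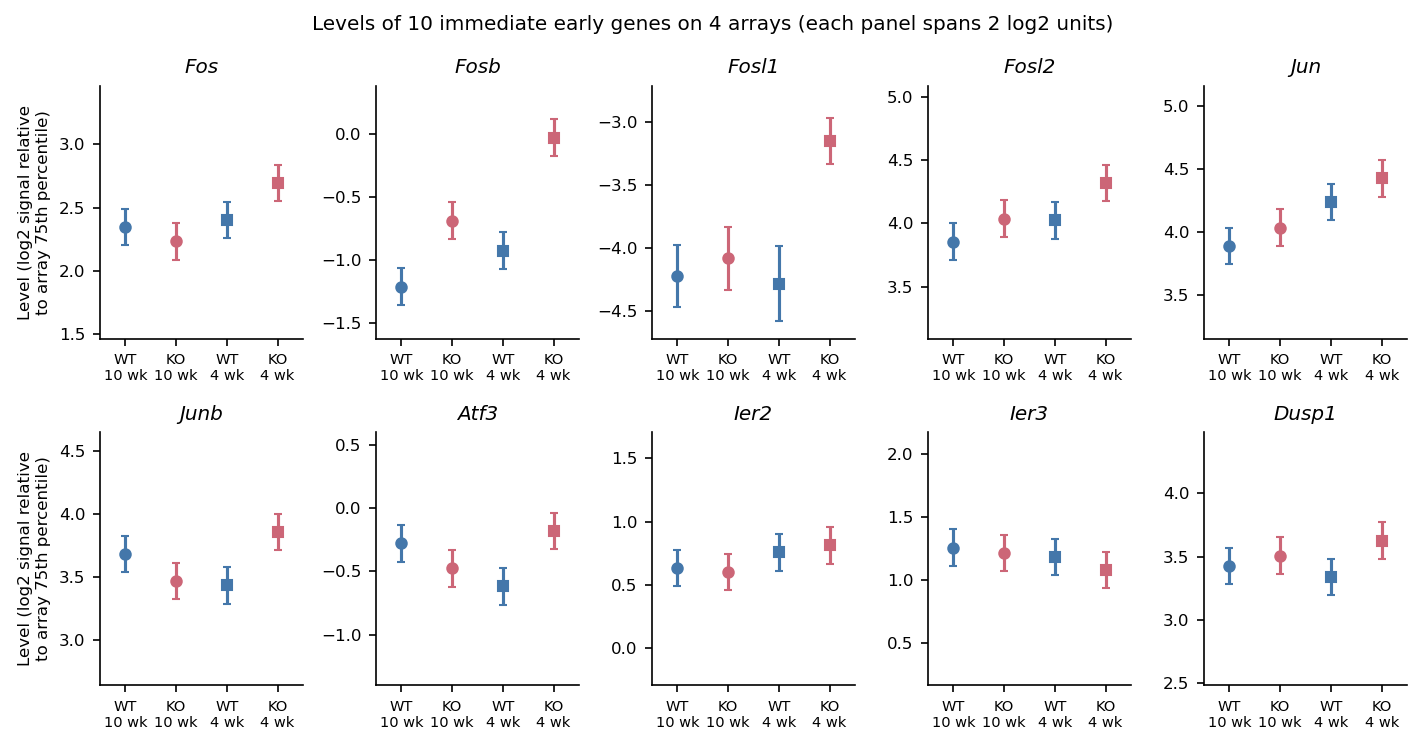
Level of each of the 10 genes on each array (log2 signal minus that of the array's 75th percentile), WT in blue and Mkx-KO in red, circles for 10 and squares for 4 weeks, with the scanner software's error estimate as bars; every panel spans the same height. Fosb and Fosl1 have the widest ranges (1.18 and 1.13), and Ier2 and Ier3 the narrowest.

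Over the 15504 genes that passed the background call on each of the 4 arrays, the median range was 0.51, and over the 10 genes it was 0.45. Fosb and Fosl1 had wider ranges than 87.6% and 86.5% of these genes. The other 8 members lay between 0.18 and 0.53. Most members therefore varied no more over the 4 preparations than the typical gene of the array.

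The first comparison set the genotypes side by side in 10-week tissue. The members were split, 5 above 0 (51.5% of all genes were) and 5 below, with a median of 0.023 against 0.0066 over all genes. None was 2-fold apart, where 2.41% of 16457 genes were. Fosb was the farthest at 0.52 ± 0.21 (1.44-fold) and the only one beyond 2 technical errors, which 14.0% of all genes exceeded. On the lower side Junb differed by -0.22, Atf3 by -0.20 and Fos by -0.11, which are 1.05, 0.96 and 0.55 technical errors in size, and Junb turned to 0.13 with its probes averaged and Atf3 to 0.0084 with normexp background correction. The remaining 6 members lay between -0.045 and 0.18.

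At 4 weeks most members stood above WT in the knockout. Their median difference was 0.29, against 0.055 over all genes, and 9 of 10 were above 0, as were 58.8% of 15686 genes. Fosl1 differed by 1.13 ± 0.35 (2.19-fold), and it alone was at least 2-fold apart, where 3.78% of genes were, 0.472% on the higher side. Fosb differed by 0.89 ± 0.21 (1.86-fold). At 1.5-fold these 2 genes were the ones apart, both higher, beside 9.86% of genes in either direction and 2.95% on the higher side. Atf3 at 0.44 and Junb at 0.42 were also beyond 2 technical errors, which made 4 of 10 members on the higher side, where 6.78% of all genes were (15.6% in either direction). These 2 passed narrowly, at 2.12 and 2.07 technical errors. With arrays centred on reference genes they were 0.33 and 0.32, and Junb was 0.32 with quantile normalization, all below that cut. The count of 4 thus depends on the scaling. Fosl2, Fos and Dusp1 differed by 0.30, 0.29 and 0.29, and Jun by 0.19, which are 0.92 to 1.46 technical errors. Ier2 (0.056) and Ier3 (-0.10) differed by less than 1 technical error.

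Set by family, all 4 FOS genes and both JUN genes were above 0 at 4 weeks. Of the genes with the TGACG core in the promoter window, Fosb, Atf3, Junb, Fos and Dusp1 differed by 0.89, 0.44, 0.42, 0.29 and 0.29. Of those without it, Fosl2, Jun and Ier3 differed by 0.30, 0.19 and -0.10. With 8 genes and a motif searched with these differences known, this is a description only.

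**Figure D2:**
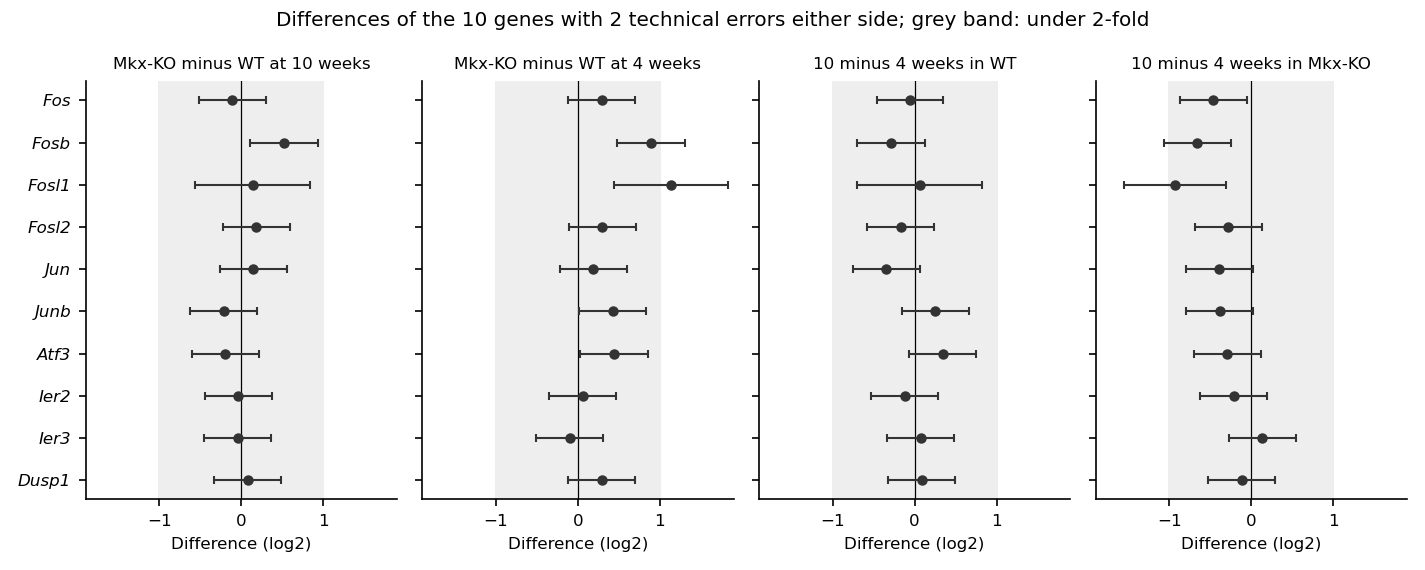
Difference (log2) of each gene in the 4 comparisons, as points, with 2 technical errors either side as bars and the span under 2-fold in grey. Only the point of Fosl1 at 4 weeks lies outside the grey band (1.13), and at 10 weeks only the bar of Fosb does not reach 0.

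The signal of Fosl1 was close to background, and the size of its 4-week difference depended on how background was treated. After normexp correction with an offset of 50, which pulls dim signals together, it was 0.20 and no member was 2-fold apart. Under the other ways of scaling or combining probes it lay between 1.03 and 1.27. For Fosb the 4-week difference ranged from 0.68 with normexp to 1.14 with its probes averaged, and the 10-week difference of 0.52 was 0.38 and 0.21 under the same alternatives. The direction at 4 weeks was the same under all 6 alternatives for every member except Ier2, which turned to -0.049 when arrays were centred on 12 reference genes. Median centring and the deposited table shifted all genes alike by a small amount (Fos from 0.292 to 0.302 and 0.304), so neither could turn a member's sign here.

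**Figure D3:**
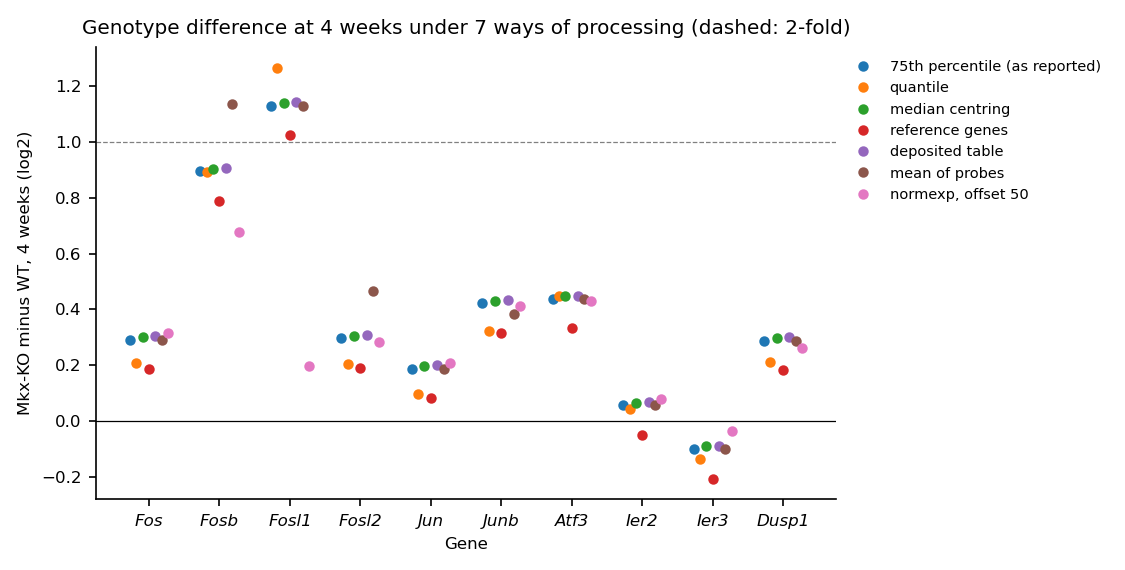
Genotype difference at 4 weeks (log2, y axis) of each gene (x axis) as reported and under 6 other ways of processing, with 2-fold as the dashed line. Fosl1 goes from 1.13 as reported to 0.20 with normexp, and Ier2 turns below 0 when arrays are centred on reference genes (-0.049).

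Second probes gave a partly different picture. The dimmer Fosl2 probe, at signals of 31.7 to 54.5, differed by 0.64 in the older and 0.63 in the younger mice, more than the 0.18 and 0.30 of the brighter one. The dimmer Junb probe, at 23.6 to 50.3, differed by 0.48 at 10 weeks, where the brighter one was at -0.22, and by 0.34 at 4 weeks, where the brighter one was at 0.42. The direction for Junb at 10 weeks thus rests on which probe is read. The second Fosb probe was not well above background on any array, at signals of 2.76 to 7.72. It differed by -0.11 at 10 weeks and by 1.38 at 4 weeks. The Fosb values with its probes averaged therefore rest in part on a probe not told from background.

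The genotype difference of Fosl1 was 0.99 ± 0.49 more at 4 than at 10 weeks, but 0.045 more with normexp. For Junb the change was 0.64 ± 0.29, and 0.25 with its probes averaged, and for Atf3 it was 0.63 ± 0.29, and 0.42 with normexp. With 1 array per group these changes were not tested. Fosb differed in the same direction at both ages, by 0.52 and 0.89, and the change of 0.37 had a technical error of 0.29 and was 0.93 with its probes averaged.

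Between 10 and 4 weeks, the WT tissue showed small differences in these genes. The members were again split, 5 above 0 (40.5% of genes were) and 5 below, with a median of 0.0014 beside -0.096 over all genes, and none was 2-fold apart, where 8.84% of genes were. Atf3 was farthest on the higher side at 10 weeks (0.34 ± 0.21) and Jun farthest on the lower (-0.35 ± 0.20). None was beyond 2 technical errors, which 34.8% of all genes exceeded.

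In Mkx-KO the same comparison put 9 of 10 members below 0 and 1 above it, where 37.7% of genes were, with a median of -0.34 beside -0.15 over all genes. Over the alternatives 1 to 4 members were above 0. It uses the 4-week Mkx-KO array that the genotype comparison at 4 weeks also uses, so the values are not independent of those above. Fosl1 differed by -0.93 ± 0.31, Fosb by -0.66 ± 0.21 and Fos by -0.46 ± 0.20, and these 3 were beyond 2 technical errors, as were 41.2% of genes. Processing moved all 3 without turning their sign: Fosl1 was -0.17 with normexp and -1.32 with quantile normalization, Fos -0.25 with quantile normalization and -0.17 in the deposited table, and Fosb -0.43 with normexp and -0.37 in the deposited table. None was 2-fold apart, against 10.1% of genes. At 1.5-fold, Fosl1 and Fosb were apart, both lower, where 27.4% of genes were apart and 15.5% lower. Ier3 was the one member above 0 (0.13).

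**Figure D4:**
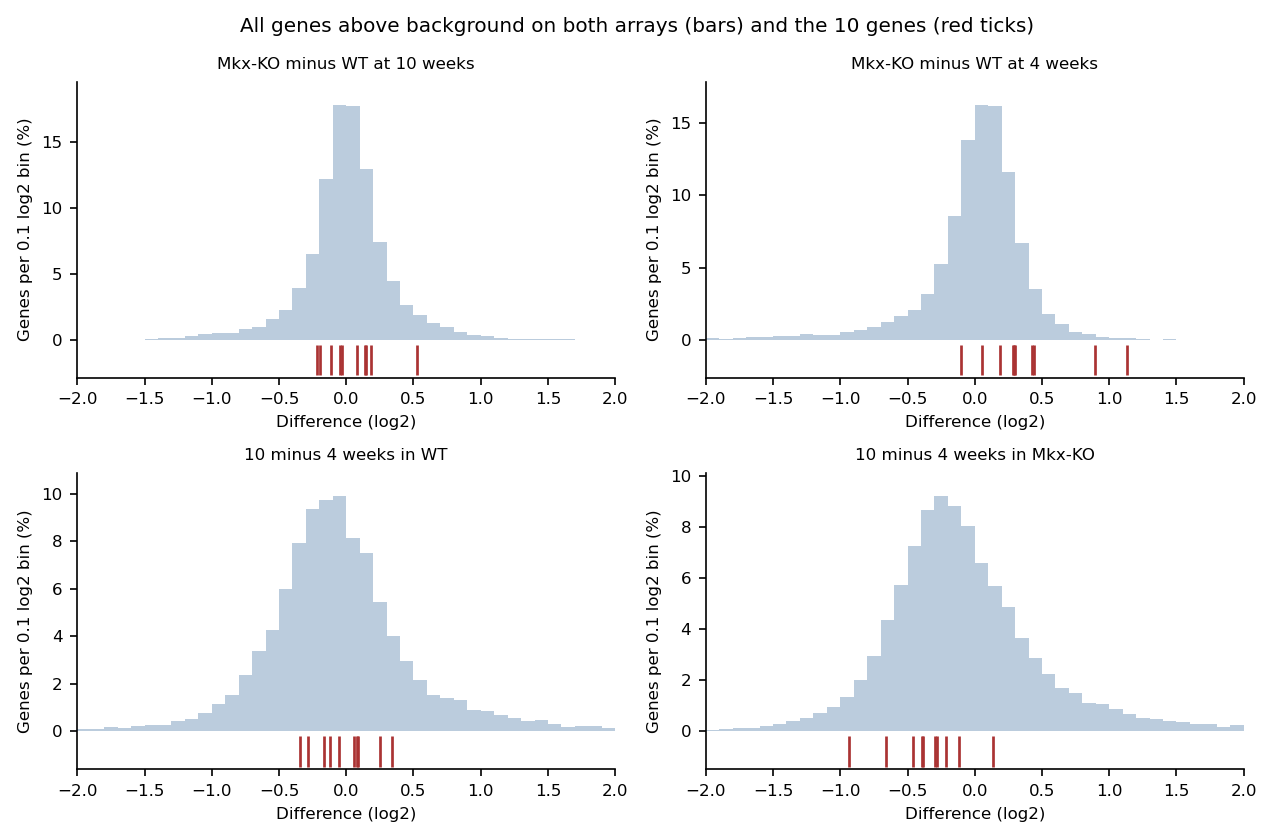
Distribution of the differences (log2, x axis) of every gene that passed the background call in each comparison, as the percentage of genes per bin, with the 10 genes as red ticks; up to 2.14% of genes lie outside the plotted span. At 4 weeks the ticks of Fosb (0.89) and Fosl1 (1.13) lie farthest to the right, and in the other panels all ticks lie between -0.93 and 0.52.

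Age differences depended on scaling. The deposited series table, in which the authors scaled each array by a factor of its own, put all 10 members higher at 10 weeks in WT and 4 of 10 in Mkx-KO, with medians of 0.36 and -0.050. In that table the median over all genes was 0.26 in WT and 0.14 in Mkx-KO, so the whole array was shifted with them. By genotype at 4 weeks that table shifted all members by the same small amount, with a median of 0.31 against 0.29. The 9 of 10 members above 0 there could therefore not have differed.

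The 4-week Mkx-KO array held the highest level of 9 members, the exception being Ier3, whose highest was in WT at 10 weeks, as for 21.6% of genes. That array also held the highest level of 44.0% of all genes well above background throughout, so the count is read against that share. Centred on reference genes it was 6 members and 29.5% of genes, and under the deposited scaling 4 members and 25.4% of genes. Neighbouring spots around the members' probes were also brighter there, with a median 0.024 to 0.16 (log2) above the mean of the other arrays, 0.15 around Fosb and 0.11 around Fosl1. Around the same probes the 4-week WT array was 0.0051 to 0.087 above the mean of the other arrays, and it was the brighter of the 4-week arrays around Fos (0.052 against 0.024) and Dusp1 (0.082 against 0.061). Over all genes the median difference was 0.055 by genotype at 4 weeks and -0.15 by age (10 minus 4 weeks) in Mkx-KO. The brightness of the neighbouring spots is thus not shown to be local to these probes, and its part in the members' differences was not tested.

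Genotype and age were also fitted together over the 4 arrays with limma, which leaves 1 residual degree of freedom that holds any change of the genotype difference with age. No member and none of 16795 genes passed an adjusted p of 0.05 for genotype (0.00% called) or for age (0.00% called). At an unadjusted p under 0.05 there were 455 genes for genotype (2.71%) and 4074 for age (24.3%). Fosb had the lowest genotype p of the members, 0.028 in limma, with an adjusted p of 1.0 and a fitted difference of 0.71 ± 0.17 (standard error), higher in Mkx-KO at both ages. Jun had their lowest age p, 0.067, with an adjusted limma p of 0.22 and a fitted difference of -0.37 ± 0.13. With normexp correction limma called 16 genes for age and no member.

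The genes most like the members over the 4 arrays were Uxs1, Fbln5, Tnfaip2, Usp5 and Irf3, whose levels centred on their own mean lay within 0.013 to 0.017 (root mean square) of the members' median profile. With 4 arrays such likeness is common, and 1626 of 14479 genes lay within 0.1. Nearest to Fosb, the gene with the widest range, were Entpd4 (0.065), Cxcr5 (0.081), Lpl (0.082), Asb4 (0.12) and Ppp2r1b (0.12). Of these, Entpd4 and Lpl had genotype differences of 0.48 and 0.38 in the older and of 0.97 and 0.91 in the younger mice.

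A list of 30 other immediate early genes showed how the wider class stood. At 4 weeks 23 of 30 were above 0 in Mkx-KO (58.8% of all genes were), with a median of 0.25. Of the reference genes 9 of 12 were above 0 there as well, and with arrays centred on them the median of the list was 0.15. At 10 weeks 18 of 30 were, near the 51.5% of all genes, with a median of 0.052 that turned to -0.00048 in the deposited table. No gene of that list was 2-fold apart by genotype at either age. By age, Ccn1 and Ccn2, matrix-bound proteins that respond to mechanical load, were higher at 10 weeks: Ccn2 by 1.57 in WT and 2.94 in Mkx-KO, and Ccn1 by 1.20 and 1.46, where 5.01% and 6.25% of genes were 2-fold higher. By genotype Ccn2 differed by 0.63 at 10 weeks and -0.74 at 4 weeks, and Ccn1 by -0.13 and -0.39. The orphan receptor gene Nr4a3 differed by 0.47 at 10 weeks and -0.33 at 4 weeks, and the kinase gene Plk2 by -0.17 and -0.13.

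Around the members in the pathway, 11 other AP-1 subunits had genotype medians of 0.046 and 0.063 at 10 and 4 weeks with none 2-fold apart. Jund, the JUN gene that is expressed without a stimulus, differed by 0.15 and 0.54, and its age difference (10 minus 4 weeks) was -0.87 in WT and -1.26 in Mkx-KO. The 17 kinases and factors upstream had medians of 0.064 and -0.0083, none 2-fold apart, with Crem, whose products include a repressor induced by cAMP, at 0.13 and 0.68. Other MAP kinase phosphatases had medians of -0.077 and 0.37 over 8 measured genes, 7 of them above 0 at 4 weeks, such as Dusp10 (0.52), Dusp4 (0.48), Dusp9 (0.46) and Dusp2 (0.40). For comparison, 58.8% of all genes were above 0 at 4 weeks, and 2.41% and 3.78% were 2-fold apart at 10 and 4 weeks.

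Genes that AP-1 is known to drive had genotype medians of 0.18 and 0.34 over 13 measured genes. At 10 weeks none was 2-fold apart and at 4 weeks 1 was, Plaur (1.02), the receptor of urokinase, named after its value was seen. The shares of all genes 2-fold apart were 2.41% and 3.78%. Ptgs2, which makes prostaglandins, differed by 0.34 and 0.72, and the matrix protease genes Mmp9 and Mmp10 by 0.94 and -0.85 in the older and by -0.12 and 0.38 in the younger mice. Heat shock genes, another class that responds to handling, had a median of -0.035 at 10 weeks and 0.19 at 4 weeks, with 12 of 13 above 0 at 4 weeks and none 2-fold apart by genotype. Over all genes the 4-week median was 0.055, with 58.8% above 0. Hspa1a, Hspa1b and Hspb1 had differences of -0.44, -0.47 and -0.069 in the older and of 0.82, 0.70 and 0.66 in the younger mice. Hspa1a and Hspa1b are near-identical copies and a probe may read both. The 12 reference genes had medians of -0.0099 and 0.10, and 9 of 12 were above 0 at 4 weeks.

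Markers of other cell types differed between the same arrays, and in bulk tissue fewer cells of a type and less RNA per cell cannot be told apart. Over all genes 3.78% were at least 2-fold apart by genotype at 4 weeks in either direction, of which the higher side held 0.472%. At 4 weeks all 8 skeletal muscle markers were at least 2-fold lower in Mkx-KO, with a summed level (in units of the 75th percentile) of 68.7 in WT and 27.3 in Mkx-KO, beside 95.3 and 121 at 10 weeks. For neutrophil lineage markers 6 of 8 were 2-fold lower at 4 weeks, with sums of 680 in WT and 343 in Mkx-KO, beside 852 and 1162 at 10 weeks. Of 6 olfactory neuron markers 3 were 2-fold lower and Cnga2 and Ano2 missed the background call on the 4-week Mkx-KO array, where the sum was 1.03, beside 41.3 to 49.8 on the other arrays.

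Some other markers stood higher on that array than on the 4-week WT array. Over all genes 58.8% were above 0 by genotype at 4 weeks and 0.472% at least 2-fold higher, and 2.41% were 2-fold apart in either direction at 10 weeks. Stratified epithelium markers were above 0 in 9 of 10 at 4 weeks, with sums of 333 in WT and 589 in Mkx-KO, and 843 and 460 at 10 weeks. Smooth muscle markers were 2-fold higher in 2 of 4, with sums of 22.2 (WT) and 57.5 (knockout) in 4-week tissue and of 18.9 and 17.0 in 10-week tissue. The 4 did not move together: at 4 weeks Acta2 differed by 1.63 and Tagln by 1.22, but Cnn1 by 0.14 and Myh11 by -0.36. B cell markers were 2-fold higher in Mkx-KO in 3 of 4 at both ages, with sums of 5.85 and 12.8 at 4 weeks and 3.42 and 8.70 at 10 weeks. Ligament and fibroblast markers had genotype medians of 0.14 and -0.020, with sums of 2967 and 3157 at 10 weeks and 3100 and 3044 at 4 weeks. Macrophage markers had genotype medians of 0.22 and -0.099, endothelial markers 0.13 and -0.040, and osteoblast markers 0.059 and -0.21. Among the osteoblast markers Ibsp, a bone matrix protein gene, was 2-fold higher in Mkx-KO at 10 weeks (1.58) and 2-fold lower at 4 weeks (-1.13), and the sums were 165 (WT) and 258 (knockout) in 10-week tissue and 443 and 316 in 4-week tissue. Sums of endothelial markers ranged from 17.5 to 20.6 and those of macrophage markers from 51.6 to 90.2. The part of these cell types in the differences of the immediate early genes was not tested.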

How the data were processed

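Total RNA of 4 samples was hybridised to 1-colour Agilent arrays. Per the file headers, the deposited scan values are spot intensity on a linear scale from Agilent Feature Extraction 11.5.1.1 (also named in the submitters' processing notes), background-subtracted and spatially detrended within each array. The deposited series table holds intensity that equals those values times 1 factor per array, 1.54 to 2.08.

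Outlier spots (60 to 77 per array) were left out, spots of a probe averaged as log2, and the 75th percentile of each array's 56605 probes subtracted. RefSeq accessions named 32994 probes. A gene counted as measured when well above background on both arrays of a comparison, and as apart at 2-fold. limma 3.58.1 in R 4.3.3 (Benjamini-Hochberg, 0.05) took genes that passed the background call on 2 or more arrays. Python 3.11.15 with pandas 2.3.3 did the remaining steps, and matplotlib 3.10.9 drew the figures.

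The limma step was tested on simulated data whose spread was assumed and not taken from these arrays. They held no age differences and no change of the genotype difference with age. There limma missed nearly all 2-fold genotype changes, a rate that need not hold for these arrays. A gene that did not pass is therefore not shown to be unchanged. The genes and lists were chosen with earlier results of these data known. Named beside the members were Mkx, up to 4 genes per list, those whose differences were largest on average regardless of sign, and the 5 genes most like the members' median profile and the 5 most like the member with the widest range. A gene that this rule names is not reported here. Outside the rule stand the ligament and fibroblast markers, the olfactory markers Cnga2 and Ano2 that missed the background call, and Plaur. The alternatives tried were normexp with an offset of 50 (on median spot signals, as the mean was not used here), quantile normalization, centring on the median or on reference genes, the deposited table, the mean over probes, other probes, other background filters and other fold thresholds.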

Additional observations from a re-analysis of the deposited data

Results flagged for a closer look

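With 1 array per group, a gene or list whose difference had opposite signs under the same contrast is given here; none of these differences was tested. Genotype differences (Mkx-KO minus WT) were below 0 at 10 weeks and above 0 at 4 weeks for Fos, Junb, Atf3 and Ier2. The 4-week value minus the 10-week value was 0.40 for Fos, 0.64 for Junb, 0.63 for Atf3 and 0.091 for Ier2. Under other processing the opposite signs were lost for Junb (0.13 at 10 weeks with its probes averaged), Atf3 (0.0084 at 10 weeks with normexp) and Ier2 (-0.049 at 4 weeks with centring on reference genes). Only Junb and Atf3 exceeded 2 technical errors of that quantity, and the dimmer Junb probe had no change of sign by age.

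Age differences (10 minus 4 weeks) were above 0 in WT and below 0 in Mkx-KO for Fosl1, Junb, Atf3 and Dusp1. The Mkx-KO value minus the WT value was -0.99 for Fosl1, -0.64 for Junb, -0.63 for Atf3 and -0.21 for Dusp1, and -0.34 between the medians of all 10 members. For a single gene this is the contrast of the previous paragraph with its sign reversed, so Junb and Atf3 stand in both lists through 1 contrast. The signs of the age differences depended on the processing. In WT, Fosl1 was -0.13 with normexp and -0.12 with quantile normalization, Junb was -0.30 with its probes averaged and -0.86 on its dimmer probe, and the members' median was -0.019 with normexp. In Mkx-KO, Dusp1 was above 0 in 3 of 6 alternatives, up to 0.17 in the deposited table.

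Medians of fixed lists also changed sign. The 4-week minus 10-week genotype median was 0.45 for other MAP kinase phosphatases, 0.22 for heat shock genes, -0.32 for glucocorticoid response genes and -0.072 for upstream regulators. The Mkx-KO minus WT age median was -0.22 for AP-1 target genes and 0.11 for upstream regulators. Of the medians compared, those of upstream regulators changed sign in 4 of 6 alternatives at 4 weeks and in WT, that of AP-1 targets in Mkx-KO in 2 and that of the phosphatases at 10 weeks in 1.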

How the results depend on the processing

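No paired analysis was possible because each group has 1 array and the labels carry no replicate numbers, and no array could be left out without losing its group. Of 100 recomputed values for the members as a group, 91 stayed the same. For that, counts had to be within 1.5 times, counts of 0 and limma counts equal, and medians within 1 technical error. Part of the 100 could not change. All 10 members passed the background call on all 4 arrays, so the background filters left pairwise counts and medians as they were. Counts of 0 could not fall at a stricter threshold. A median near 0 could change sign within 1 technical error, as the genotype median at 10 weeks did (0.023, and -0.030 in the deposited table). At 4 weeks the count of members 2-fold apart by genotype, 1 as reported, was 0 with normexp, 2 with the mean over probes, 2 at 1.5-fold and 0 at 3-fold. In Mkx-KO by age, 0 as reported, it was 1 with quantile normalization and 2 at 1.5-fold. The gene added at 4 weeks with the mean over probes was Fosb, whose second probe was not well above background on any array. The deposited table moved the age medians to 0.36 in WT and -0.050 in Mkx-KO, and the count of members highest on the 4-week Mkx-KO array from 9 to 4. That count, the changes of genotype difference with age and the list medians were put through the alternatives after seeing the data. Of 252 recomputed single-gene differences 24 changed sign. The only reported difference of at least 2-fold was that of Fosl1 by genotype at 4 weeks, which kept its sign. For the 7 genes with a single probe the mean over probes could not differ. Dim signal limits Fosl1 and the second probes of Fosl2, Junb and Fosb.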

Other observations

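Glucocorticoid response genes, which follow stress hormone and the time of day, had higher median levels at 10 than at 4 weeks. Of 12, 4 were at least 2-fold higher at 10 weeks in WT, with a median of 0.66, and 7 were higher and 1 lower in Mkx-KO, with a median of 1.15; over all genes 5.01% and 6.25% were 2-fold higher. Under the 6 alternatives, run on this list after seeing the data, the medians were 0.65 to 1.01 in WT and 1.09 to 1.44 in Mkx-KO. Zbtb16, a zinc finger gene strongly induced by glucocorticoids, differed by 1.98 in WT and 2.24 in Mkx-KO, Klf15, a regulator of fuel use, by 1.40 and 2.34, and Tsc22d3, which encodes the anti-inflammatory protein GILZ, by 0.90 and 1.33. Lcn2, also a neutrophil granule gene, differed by 0.072 and 2.13. Skeletal muscle markers had age medians of 0.28 in WT and 2.29 in Mkx-KO and neutrophil lineage markers 0.32 and 2.31, and their part was not tested.

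Hypoxia response genes had genotype medians of -0.077 at 10 weeks and -0.048 at 4 weeks, with Egln3, an oxygen sensor gene, at -1.12 and -0.26 and the glucose transporter gene Slc2a1 at -0.46 and 0.44. Integrated stress response genes had medians of 0.11 and 0.071, with the cystine transporter gene Slc7a11 at -1.16 and 0.72. By age Slc7a11 was higher at 10 weeks by 2.24 in WT and 0.36 in Mkx-KO, while Chac1, which breaks down glutathione, differed by -1.01 and -1.10.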
